A study of Mus musculus with 4 samples.

Results

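Pi16 fibroblasts were 672 of the 18153 cells that passed the filters in 4 single-cell libraries of mouse hind limb muscle. A cell was counted as one when it held more than 200 detected genes and less than 10% mitochondrial UMIs (unique molecular identifiers, counted molecules), when at least 4 of the 7 genes Pi16, Adgrd1, Sbsn, Ptx3, Smpd3, Has1 and Efemp1 were detected, and when the 7 tendon genes Fmod, Chad, Kera, Cilp2, Tnmd, Comp and Thbs4 together held under 0.1% of its UMIs. The tibialis anterior and gastrocnemius muscles of 2-month-old male mice, pooled within each genotype, were digested, and live cells were sorted by GFP. All mice carried the S100GFP transgene (S100GFPtg), in which the S100B promoter drives enhanced GFP to mark Schwann cells. WT mice carried the transgene alone, and Sod1KO mice were S100GFPtg Sod1-/-, with both copies of the gene for Cu/Zn superoxide dismutase disrupted. Each of the 4 combinations of genotype and sort (WT GFP+, Sod1KO GFP+, WT GFP- and Sod1KO GFP-) was 1 library, so no difference below has a replicate check, no p-value is given, and the 95% intervals cover counting error only.

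Pi16-expressing fibroblasts are known as adventitial or universal fibroblasts. They lie in the outer sheath of vessels and in the fascia around muscle, are marked by Pi16, Dpp4 and Cd34, and are thought to be a reservoir from which more specialised fibroblasts arise. They build a loose matrix of microfibrils, elastin-associated proteins and hyaluronan, and they secrete complement, chemokines and inhibitors of proteases.

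Depth was uneven. The libraries held 21959719 to 105954116 UMIs, the lowest in WT GFP-. The median member held 5367 UMIs in WT GFP- and 20248 to 23362 in the other libraries, and the summed members of WT GFP- held only 369767 UMIs against 3133110 to 6436546 in the others. Library pairs shared 1 to 13 cell barcodes, and no barcode was a member in both libraries of a pair. Sod1, the targeted gene, was at 102 CPM (counts per 1000000 of the summed UMIs) in GFP+ members labelled WT and 99.6 in those labelled Sod1KO, and at 75.7 and 118 CPM in the GFP- members. It was thus not lower under the label Sod1KO, with log2 ratios to WT of -0.04 (-0.24 to 0.16) for GFP+ and 0.63 (0.09 to 1.24) for GFP-. Which exons the allele lost is not stated in the sources used, and tags from the 3′ end may lie outside them, so Sod1 checks neither label. Libraries are called by their labels throughout, and any direction between genotypes rests on those labels. Unless stated otherwise, 4 values in a row follow the order WT GFP+, Sod1KO GFP+, WT GFP-, Sod1KO GFP-.

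The name fibroblast held for most members but not all. Pdgfra, the receptor that marks mesenchymal cells, was detected in 90.1% and 79.5% of the GFP+ members of WT and Sod1KO and in 93.7% of those of Sod1KO GFP-, but in only 15 of 36 (41.7%) of WT GFP-. Markers of endothelial cells held at least 0.05% of the UMIs in 30 of those 36 cells, and markers of mural cells, the contractile cells around vessels, in 26. Other fibroblast markers were common there: Dcn, Col1a1, Col3a1 and Ly6a in 100%, Dpt and Cd34 in 97.2% and Lum in 88.9%. As most members of WT GFP- also held endothelial or mural markers, they are called fibroblasts by the rule only. Schwann cell markers reached the same limit in 15 of 131 members of WT GFP+ and in 90 of 283 of Sod1KO GFP+, and in 0 of 36 and 0 of 222 of the GFP- libraries, which allows shares of up to 8.33% and 1.35%. Perineurial markers, of the cells that wrap nerve fascicles, did so in 13 and 68 GFP+ members, 0 in WT GFP- and 18 in Sod1KO GFP-. In Sod1KO GFP+, 83 of the 140 members with just 4 rule genes were over the limit for at least 1 of 5 other classes, against 4 of the 45 with all 7 genes.

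Results are therefore given both for all members and for the 461 screened members, in which the markers of Schwann, endothelial, mural, perineurial and immune cells each held under 0.05% of the UMIs. The screen was added after the values were seen. It left 107, 170 and 179 cells in WT GFP+, Sod1KO GFP+ and Sod1KO GFP- but only 5 of WT GFP-, so WT GFP- is left out of most screened comparisons. Pdgfra was detected in 94.1% to 100% of the screened members of the 4 libraries. The screened sums still held Schwann markers at 29.9 to 78.8 CPM, and erythroid markers at 2844 CPM in Sod1KO GFP+ against 10.8 to 33.9 in the other libraries. Whether a member with markers of a second class was a doublet, held free RNA or expressed both was not tested.

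**Figure D1:**
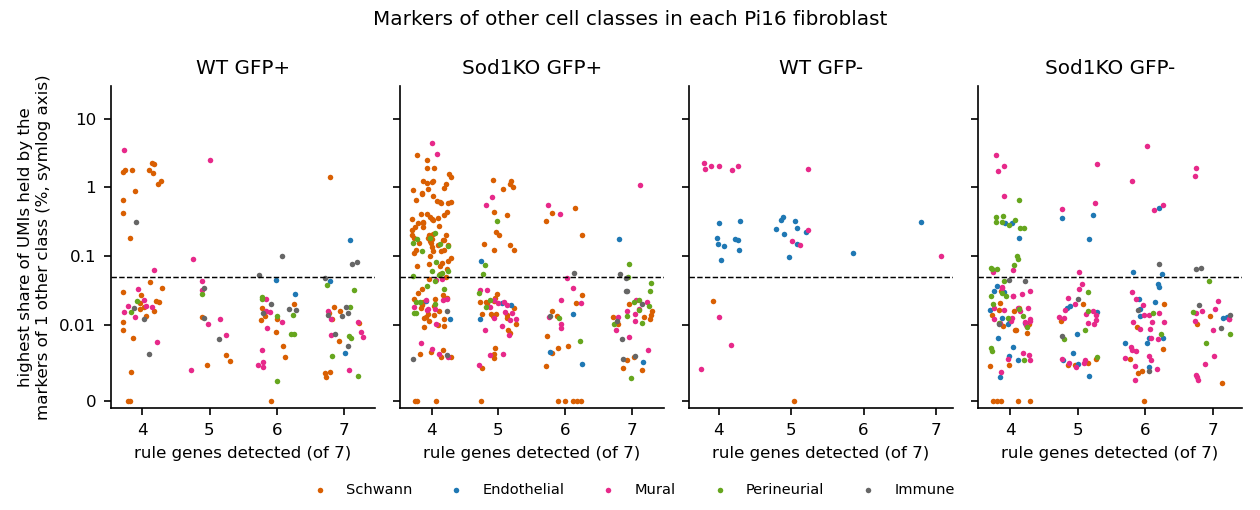
Each point is 1 member, placed by the number of the 7 rule genes detected (x axis) and by the highest share of its UMIs held by the markers of 1 other class (y axis, percent, symmetrical log axis), with 1 panel per library and colours for the class. In WT GFP- most of the 36 cells lie above the 0.05% limit with endothelial or mural markers, and in Sod1KO GFP+ the cells above it are mainly those with 4 or 5 rule genes and Schwann or perineurial markers.

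The 7 rule genes chose the members, so their levels describe the choice and carry no test. Pi16, a secreted peptidase inhibitor that names the class, was counted at 2057, 960.1, 1477 and 1605 CPM. It was at 79.9 to 153 CPM in the other Pdgfra+ stromal cells of the same libraries and at 3.17 to 18.9 CPM in endothelial cells, which should lack it. After each cell was thinned to 3000 UMIs, a Pi16 UMI remained in 51.2% to 82.9% of members and in 0.654% to 3.19% of endothelial cells. Has1, which makes hyaluronan at the cell surface, was at 1018, 628, 909 and 737 CPM, and Adgrd1, an adhesion receptor, at 980, 369, 498 and 598 CPM. Efemp1, the matrix protein fibulin 3, was at 465, 260, 452 and 460 CPM. Ptx3, a soluble pattern recognition protein that cross-links hyaluronan, was at 438, 206, 168 and 164 CPM, Sbsn at 354, 156, 306 and 224 CPM, and Smpd3, a neutral sphingomyelinase, at 200, 104, 35.2 and 67.2 CPM. In WT GFP- single cells held 48.2% of the Pi16 UMIs, 74.3% of those of Sbsn and 80.6% of those of Ptx3, and without that cell the levels there were 840 CPM for Pi16, 86.0 for Sbsn and 35.6 for Ptx3. All 7 genes were lower in Sod1KO GFP+ than in WT GFP+. Members with exactly 4 rule genes were 46 of 131, 140 of 283, 19 of 36 and 95 of 222.

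Cells just outside the rule were numerous. In WT GFP+, 108 cells held 3 rule genes and met the other criteria, with a summed rule-gene level of 511 CPM, against 1151 CPM in the 46 members with exactly 4. The corresponding levels were 564 against 815 CPM in Sod1KO GFP+, 676 against 1267 in WT GFP- and 674 against 1113 in Sod1KO GFP-. The tendon limit excluded 59 cells with 4 or more rule genes, 28 of them in Sod1KO GFP+ and 0 in WT GFP-. Between 0.05% and 0.1% of tendon UMIs lay 8, 11, 0 and 10 members, and between 0.1% and 0.2% lay 6, 8, 0 and 3 cells outside.

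**Figure D2:**
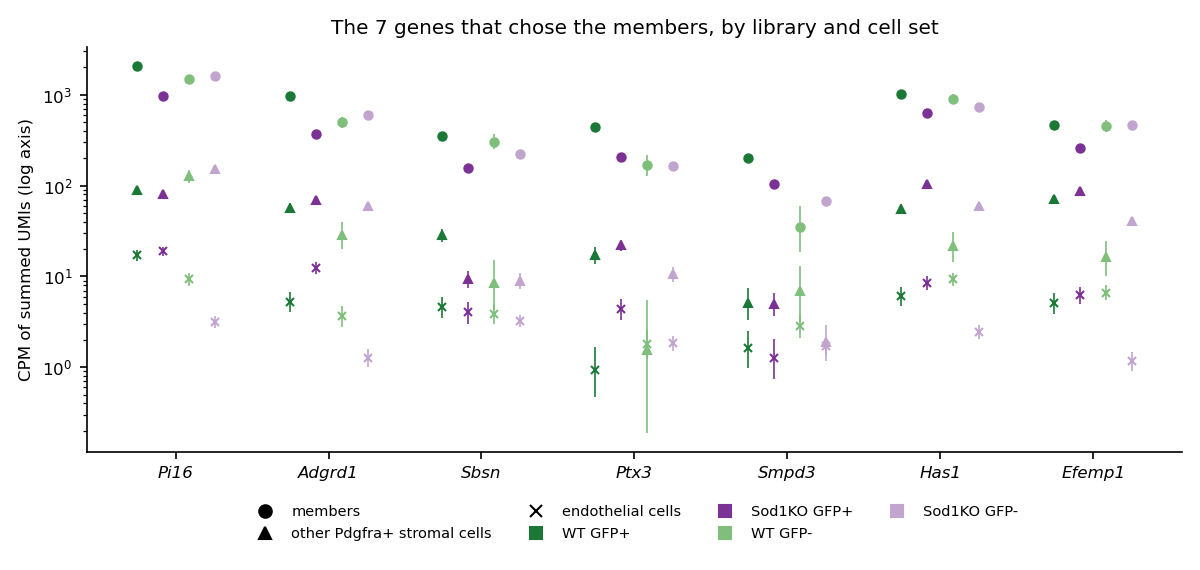
The 7 genes of the rule (x axis) in members and in comparison cells of the same library (marker shapes), as CPM of the summed UMIs on a log axis, coloured by library, with exact 95% Poisson intervals. Members lie above the other cell sets for each gene, since these genes chose them, with Pi16 between 960.1 and 2057 CPM.

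Members were set beside the other Pdgfra+ stromal cells of the same library (390, 770, 92 and 714 cells) to describe what they share beyond the rule. The members were chosen on genes of these same cells, so this comparison is a description. Ptgs2, the inducible cyclooxygenase of prostaglandin synthesis, ranked first, at 1047, 351, 295 and 424 CPM in members against 42.7, 40.4, 21.6 and 44.0 CPM in the other stromal cells. Genes at least 2-fold higher in all 4 libraries numbered 44 of the 5385 compared (0.817%), and 62 (1.15%) were at least 2-fold lower. With the screened members of the 3 other libraries, 255 of 10002 genes (2.55%) were higher and 471 (4.71%) lower. The 44 higher genes were all among those 255, as were 54 of the 62 lower genes among the 471.

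Universal fibroblast genes outside the rule stood above the other stromal cells as a group. Of the 26 genes of that list, 22 could be compared in all 4 libraries, 11 were at least 2-fold higher in each and all 22 were above 0, with a median log2 ratio of 2.13, 1.50, 1.71 and 1.71. The medians over every gene compared were -0.15, 0.02, -0.06 and -0.11. Sema3c, a secreted axon and vessel guidance factor, was at 697, 387, 398 and 748 CPM in members and at 57.2, 70.2, 51.6 and 79.3 CPM in the other stromal cells. Cd55, which protects cells from complement, was at 372, 201, 725 and 428 CPM, log2 ratios of 2.93, 2.43, 3.75 and 2.81. Among the screened members 20 of 26 were at least 2-fold higher in the 3 libraries. Dpp4, the dipeptidyl peptidase commonly used to mark these cells, was at 290, 189 and 226 CPM in screened members of WT GFP+, Sod1KO GFP+ and Sod1KO GFP- against 10.2, 8.06 and 11.6 CPM. Dact2, an intracellular modulator of Wnt and TGF-beta signalling, was at 106, 58.2 and 64.3 CPM against 2.25, 1.17 and 3.25 CPM. Igfbp6, a binding protein for IGF2, had a small gap, at 3267, 2665, 2247 and 3390 CPM against 1519, 1727, 1910 and 2830 CPM. Procr, the protein C receptor, is also an endothelial gene: its log2 ratio of 2.11 in WT GFP- became -0.02 in the 5 screened cells there, while it was 3.35, 3.43 and 2.44 in the screened members of the other libraries.

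Some genes of hyaluronan supply and binding were also higher in members, which were chosen in part on Has1 and Ptx3, themselves tied to hyaluronan. Ugdh, which makes the UDP-glucuronic acid that hyaluronan is built from, was at 1001, 673, 922 and 763 CPM in members against 125, 209, 90.2 and 125 CPM in the other stromal cells. Gfpt2, of the hexosamine pathway that supplies the other sugar of hyaluronan, was at 1135, 536, 706 and 759 CPM against 178, 177, 99.4 and 156 CPM. Tnfaip6, a hyaluronan-binding protein, was at 1533, 862, 811 and 1157 CPM against 383, 358, 238 and 228 CPM. Of the list of hyaluronan genes outside the rule, 6 were compared in all 4 libraries, and Ugdh and Tnfaip6 passed 2-fold. In screened members 4 of 8 did (Has2, Ugdh, Tnfaip6 and Vcan), and Cemip2, linked to hyaluronan turnover, was at least 2-fold lower.

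Fbn1 and Mfap5, of the microfibril, were among the higher matrix genes, while no collagen passed in all 4 libraries. Fbn1, the backbone of microfibrils, was at 2513, 1540, 3191 and 3066 CPM against 479, 533, 382 and 542 CPM, log2 ratios of 2.39, 1.53, 3.06 and 2.50. Mfap5, which binds fibrillin, had log2 ratios of 2.00, 0.98, 2.06 and 1.35. Of the elastic fibre and microfibril list, 2 of 15 genes (Fbn1 and Emilin2) passed 2-fold in all 4 libraries and 7 were above 0, with medians of 0.10, -0.11, 0.60 and 0.22, and 6 of 19 in screened members, where Mfap5, Ltbp1, Loxl1 and Loxl2 were added. Eln itself, tropoelastin, was at 252, 97.7, 195 and 95.9 CPM against 358, 292, 139 and 176 CPM, lower than in the other stromal cells of 3 libraries. None of the 16 collagens compared passed 2-fold either way, nor any of the 8 small leucine-rich proteoglycans. Col1a2 had log2 ratios of 0.16, -0.54, 0.72 and 0.16 and Dcn of -0.63, -0.51, 0.30 and -0.18. In screened members Col14a1, a collagen of the fibril surface, was the 1 collagen of 18 above 2-fold, at 1.92, 1.26 and 1.16 in the 3 libraries.

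Secreted factors split by kind. C3, the central complement component, was at 1486, 911, 641 and 611 CPM in members against 210, 286, 118 and 82.7 CPM, log2 ratios of 2.82, 1.67, 2.44 and 2.89. In WT GFP- 1 cell held 43.5% of the C3 UMIs, and the ratio there was -0.63 without members of over 2 times the median UMIs, which ends the call in that library. Clu, an inhibitor of the terminal complement complex, was the opposite, at 25.9, 10.6, 18.9 and 35.3 CPM against 73.6, 68.5, 276 and 287 CPM. Complement thus held 2 higher genes (Cd55, and C3 with that limit) and 1 lower among 10 compared. Adamts5, a protease that cleaves aggrecan and versican, was at 804, 423, 733 and 813 CPM against 202, 165, 200 and 306 CPM, and with Pcolce2 it made 2 of 19 protease genes above 2-fold. Bmp2, a bone morphogenetic protein, was the 1 of 18 TGF-beta and BMP genes above 2-fold, at 68.0, 37.0, 103 and 71.9 CPM against 23.3, 10.9, 26.2 and 21.0 CPM. Among trophic factors 0 of 10 were at least 2-fold higher and 1 (Vegfc) lower in all 4 libraries. In screened members Fgf2, Fgf18 and Vegfd were at least 2-fold higher and Igf2, Pdgfa and Hbegf lower among 17, and Fgf2 there was at 146, 122 and 109 CPM against 23.9, 16.7 and 24.8 CPM.

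Several genes known from other muscle fibroblasts were lower in most libraries. Apod, a lipid-binding lipocalin, was at 926, 2467, 371 and 925 CPM in members against 5609, 6455, 682 and 1979 CPM. Cxcl14 was at 583, 674, 430 and 689 CPM against 3047, 1715, 520 and 1422 CPM, and Cxcl12, the ligand of Cxcr4, at 171, 106, 584 and 131 CPM against 452, 283, 1024 and 319 CPM. Col15a1, a collagen of basement membrane zones and a marker of parenchymal fibroblasts, was at 105, 320, 354 and 334 CPM against 904, 818, 363 and 670 CPM. Apoe and Pparg were the 2 of 10 adipogenic and lipid genes at least 2-fold lower in all 4 libraries. The genes ranked lowest were mainly endothelial, such as Adgrf5 and Plvap, and the part of endothelial RNA in the comparison cells, which were kept by Pdgfra and the tendon limit alone, was not tested. Ddit4l, a stress-induced inhibitor of mTOR signalling that was not rich in endothelial cells, was at 5.11, 5.90, 10.8 and 3.84 CPM against 20.8, 22.3, 102 and 38.3 CPM.

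The transcription factors of the limb mesenchyme, the antioxidant genes, the immediate early genes, the clock genes, the interferon genes and the S100 genes showed no gene past 2-fold in all 4 libraries, among 11, 21, 20, 12, 14 and 7 compared. Chemokines and Wnt ligands and modulators showed none among 8 and 7. In screened members Pitx1, a hind limb factor, was higher and Meox1 and Meox2 were lower among 17 transcription factors, Mt2 and Gclc were higher among 25 antioxidant genes, Il6 and Csf1 were higher and Cxcl12 and Cxcl16 lower among 15 chemokines and cytokines, and Wnt2 and Sfrp2 were higher and Sfrp5 and Dkk3 lower among 13 Wnt genes.

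Other genes at the top of the ranking were Sdk1, a cell adhesion protein, at 513, 354, 189 and 569 CPM against 48.2, 55.1, 19.3 and 64.0 CPM, and Pcsk6, a proprotein convertase, at 320, 195, 338 and 565 CPM against 15.7, 18.1, 59.4 and 70.6 CPM. Creb5, a transcription factor, was at 845, 608, 330 and 714 CPM against 170, 138, 70.9 and 106 CPM. Ackr3, a receptor that scavenges Cxcl12, was at 660, 263, 473 and 470 CPM against 69.1, 48.2, 139 and 96.4 CPM. In screened members Cmah, the hydroxylase of sialic acid, was at 117, 83.3 and 189 CPM in WT GFP+, Sod1KO GFP+ and Sod1KO GFP- against 1.23, 0.955 and 1.63 CPM, and it ranked first by the smallest of its 3 ratios. It was named after its values were seen.

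**Figure D3:**
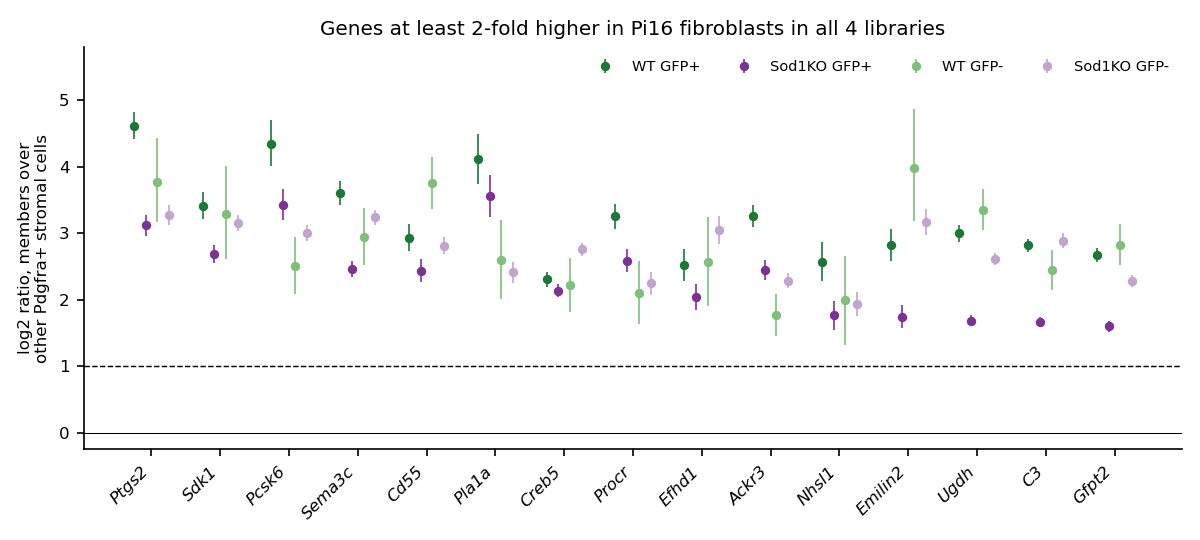
Log2 ratio of members over the other Pdgfra+ stromal cells of the same library (y axis) for the 15 genes ranked first among those at least 2-fold higher in all 4 libraries (x axis), with 95% counting intervals, coloured by library. The 2-fold limit put every point above 1, and Ptgs2 in WT GFP+ reaches 4.62.

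Stromal cells are of several kinds. Cells with Myoc and Fst (84, 161, 43 and 317 cells) and cells with Inmt, Rbp4 and Gdf10 (111, 129, 3 and 37 cells) were each set beside members. Both sets were chosen by the detection of those genes under the same tendon limit, with no need for Pdgfra. Ptgs2 stood above both, with log2 ratios of 4.34, 3.14, 2.76 and 2.78 over Myoc and Fst cells, and of 4.32, 3.34 and 3.56 over Inmt, Rbp4 and Gdf10 cells where those held enough cells (WT GFP+, Sod1KO GFP+ and Sod1KO GFP-). C3 stood above Myoc and Fst cells by 2.86, 1.32, 2.16 and 2.85, but above Inmt, Rbp4 and Gdf10 cells by only 1.52, 0.42 and 0.91. Loxl1, a cross-linker of elastin, had log2 ratios of 1.21, -0.14 and 0.13 over the latter, and Eln of -2.48, -3.43 and -3.09. Thus the Inmt, Rbp4 and Gdf10 cells held more elastin mRNA than the members did, in each of these 3 libraries.

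The share of members was higher in the libraries labelled Sod1KO in both sorts under the rule, and in cells thinned to equal depth the intervals of both differences included 0. Members were 131 of 4767 cells in WT GFP+ (2.75%, Clopper-Pearson interval 2.30 to 3.25), 283 of 6291 in Sod1KO GFP+ (4.50%, 4.00 to 5.04), 36 of 1665 in WT GFP- (2.16%, 1.52 to 2.98) and 222 of 5430 in Sod1KO GFP- (4.09%, 3.58 to 4.65). The difference between genotypes was 1.75 percentage points (1.05 to 2.44) in GFP+ and 1.93 (0.971 to 2.74) in GFP-. Between sorts it was 0.586 (-0.336 to 1.37) in WT and 0.410 (-0.331 to 1.14) in Sod1KO. With screened members the shares were 2.24%, 2.70%, 0.300% and 3.30%, and the genotype difference in GFP+ was 0.458 points (-0.135 to 1.03), while that in GFP- was 3.00 (2.40 to 3.53). With all cells thinned to 3000 UMIs before the rule was applied, the shares were 1.57%, 1.51%, 1.62% and 1.90%, and the differences were -0.0630 (-0.567 to 0.417) in GFP+ and 0.283 (-0.605 to 0.972) in GFP-. The rule counts detected genes, and the median cell of each library held 13122, 13644, 8275 and 15273 UMIs, close in the GFP+ pair and lower in WT than in Sod1KO in the GFP- pair. A share of sorted cells does not give a number of cells in muscle, and the sort gate and the digestion can set it.

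**Figure D4:**
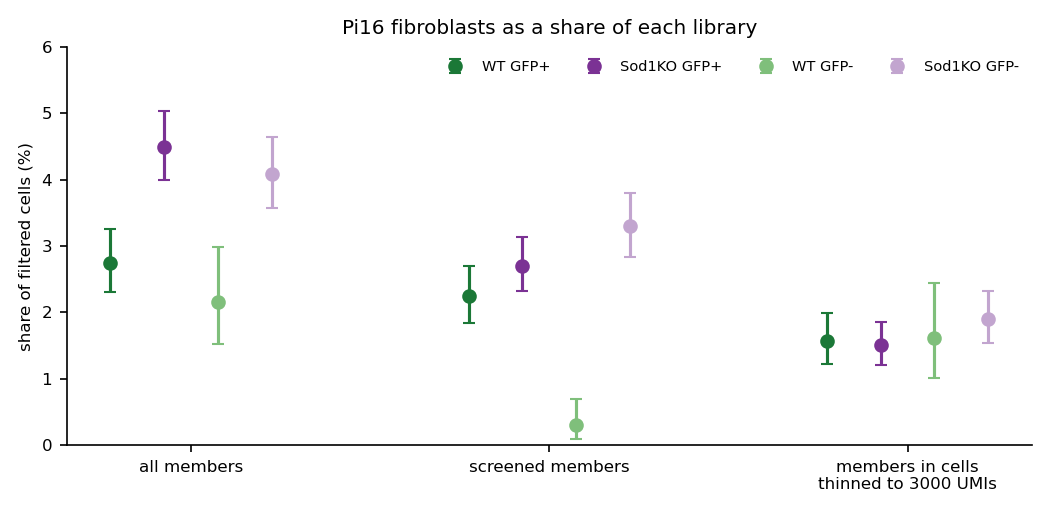
Pi16 fibroblasts as a share of the filtered cells of each library (y axis, percent) by the rule as given, with the screen and in thinned cells (x axis), with 95% Clopper-Pearson intervals. The shares of 4.50% and 4.09% in the libraries labelled Sod1KO lie above those of WT under the rule, the GFP+ pair lies close together with the screen, and the 4 libraries lie between 1.51% and 1.90% in thinned cells.

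Between genotypes, 788 of the 10740 genes compared (7.34%) were at least 2-fold higher and 240 (2.23%) at least 2-fold lower in members of Sod1KO GFP+ than of WT GFP+, where the median of all genes was 0.13 on the log2 scale. In the screened members of the same libraries 186 of 8818 (2.11%) were higher and 79 (0.896%) lower, with a median of 0.02. Of the 788 higher genes 121 were also higher with the screen and 497 could no longer be compared, and of the 240 lower genes 53 were also lower. In GFP- 922 of 9144 genes (10.1%) were higher and 467 (5.11%) lower, and with the screen, on 5 WT cells, 929 of 7885 (11.8%) were higher and 748 (9.49%) lower. The GFP+ and GFP- cells of a genotype came from the same pool of mice, so the sorts are not replicates of each other. In both sorts at once, 115 of 9015 genes (1.28%) were higher and 15 (0.166%) lower in all members. In screened members the counts for both sorts were 29 of 7743 (0.375%) higher and 1 (0.0129%) lower. Of the 115 higher genes 13 were also higher in both sorts with the screen, and 52 could no longer be compared. Of the 15 lower genes 0 were also lower in both with the screen, and 5 could no longer be compared.

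Lepr, the leptin receptor, and Mdk, the heparin-binding growth factor midkine, were higher in both sorts with and without the screen. Lepr was at 13.1, 71.5, 5.41 and 86.8 CPM, and in screened members at 5.22, 69.3, 7.61 and 81.6 CPM. The screened GFP+ difference was 3.73 on the log2 scale (2.93 to 4.66) and the GFP- one 3.42 (0.93 to 8.73), the latter with 1 UMI in the 5 WT cells. In the other Pdgfra+ stromal cells Lepr was also higher in the libraries labelled Sod1KO, by 1.66 in GFP+ and 1.28 in GFP-. Mdk was at 22.3, 139, 8.11 and 61.4 CPM, and screened log2 ratios were 2.78 (2.28 to 3.32) for GFP+ and 1.88 (0.01 to 4.93) for GFP-, the latter with 2 UMIs in WT. The difference in the other stromal cells was 0.68 and 1.15. Lepr here, and Stmn1 and Fhit below, were named after the screened values were seen.

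Protease regulators and growth factors were among the listed genes that were higher. Timp1, an inhibitor of matrix metalloproteases, was at 33.8, 86.7, 32.5 and 119 CPM, log2 ratios of 1.36 (1.06 to 1.67) for GFP+ and 1.88 (1.06 to 2.84) for GFP-, and of 1.03 and 2.18 with the screen. Adamts4, an aggrecanase, was at 44.0, 138, 43.3 and 132 CPM, with ratios of 1.65 and 1.61, and of 1.52 and 0.59 with the screen. These were the 2 of 25 protease genes higher in both sorts. Igf1, a growth factor for muscle fibres and satellite cells, was at 371, 615, 354 and 682 CPM in all members and at 405, 817, 373 and 775 CPM in screened members, where GFP+ showed a log2 ratio of 1.01 (0.91 to 1.12) and GFP- one of 1.06 (0.65 to 1.49). Hgf, which activates satellite cells, was at 6.38, 21.6, 5.41 and 21.8 CPM, and its screened GFP+ ratio was 1.09 (0.23 to 2.02). The 5.41 CPM in WT GFP- lay under the 8.11 CPM that 3 UMIs make there.

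Col18a1, the collagen that carries endostatin, was the 1 of 18 collagens higher in both sorts, at 57.8, 281, 56.8 and 128 CPM, and its screened ratio was 1.66 (1.35 to 1.99) in GFP+ and 0.48 in GFP-. Col15a1 was higher in GFP+ at 1.61 (1.44 to 1.78), or 1.38 with the screen, and its ratio in GFP- was -0.08. Lum, a proteoglycan of collagen fibrils, was at 434, 896, 773 and 958 CPM, so the GFP+ ratio was 1.05 (0.96 to 1.13) and that in GFP- 0.31. Apod was higher in both sorts, at 1.41 and 1.32, while its screened ratios were 1.23 (1.16 to 1.29) in GFP+ and 0.27 (-0.00 to 0.56) in GFP-. Dlk1, a preadipocyte factor, was at 0.803 CPM in screened members of WT GFP+ and 47.4 CPM in those of Sod1KO GFP+, a log2 ratio of 5.88 (4.00 to 8.94) that rested on 2 UMIs in WT. Stmn1, which destabilises microtubules, and Fhit, a diadenosine hydrolase, were also higher in screened members, with GFP+ ratios of 3.14 (2.10 to 4.39) and 1.40 (1.14 to 1.66).

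Adventitial genes were lower in the members of Sod1KO GFP+. Of the 26 universal fibroblast genes outside the rule, 11 were at least 2-fold lower and 25 below 0, with a median log2 ratio of -0.87, beside 2.23% of all genes lower. With the screen the median was -0.35, again with 25 of 26 below 0, and Wnt2 alone was past 2-fold, beside 0.896% of all genes. Dpp4, of this list, had ratios of -1.26 and -0.61. In GFP- 19 of 26 were above 0 with a median of 0.25, and 3 were at least 2-fold higher, beside 10.1% of all genes. In screened GFP- members, with 5 cells in WT, 24 were above 0 with a median of 1.04. There 13 were at least 2-fold higher, beside 11.8% of all genes. The members of Sod1KO GFP+ held the higher Schwann and perineurial marker levels (2196 and 421 CPM, against 1633 and 200 in WT GFP+), and with the screen these levels were 78.8 and 62.3 CPM in Sod1KO GFP+. The share of members with only 4 rule genes was 49.5% in Sod1KO GFP+ and 35.1% in WT GFP+, and the part of these differences in the shift was not tested beyond the screen.

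Wnt2, a ligand these fibroblasts are known to make, was at 71.2, 11.5, 29.7 and 26.9 CPM, a GFP+ ratio of -2.63 (-3.03 to -2.24) in all members and -1.78 (-2.20 to -1.38) in screened ones. Ccn5, a matricellular inhibitor of fibrosis signalling, had GFP+ ratios of -2.46 and -1.89. C7, of the terminal complement complex, had ratios of -1.75 and -1.08. Among chemokines Ccl2 and Ccl7, which draw monocytes, had screened GFP+ ratios of -1.18 (-1.34 to -1.02) and -1.07 (-1.28 to -0.87). Ccl2 had a GFP+ ratio of -0.74 in all members and was higher in GFP-, at 4.14 (2.91 to 5.77).

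**Figure D5:**
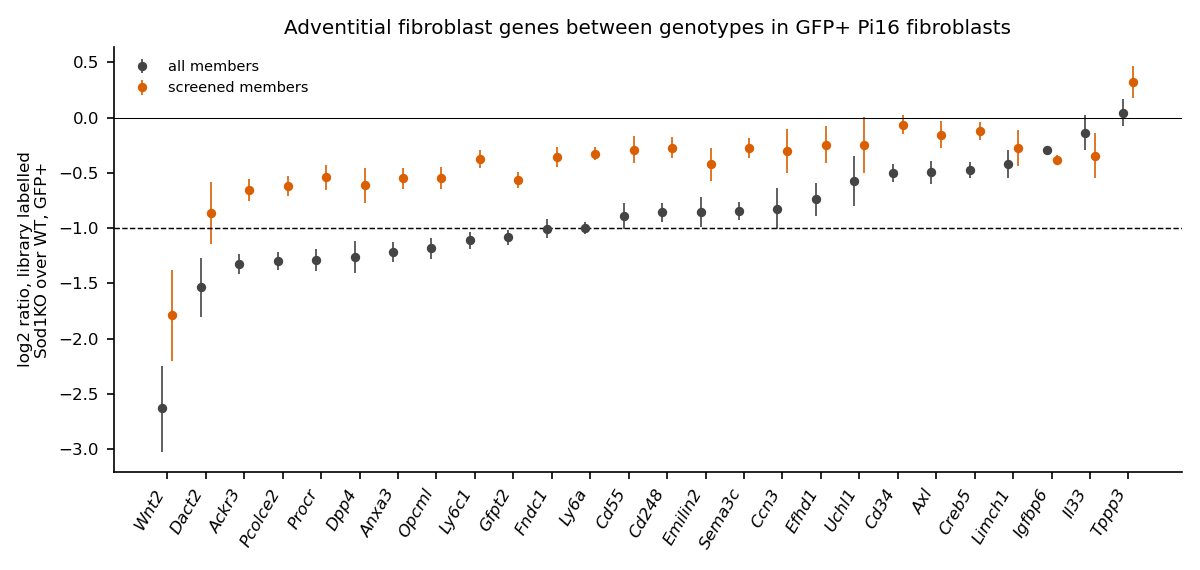
Sod1KO over WT in GFP+ Pi16 fibroblasts, by label, as a log2 ratio (y axis) for the 26 universal fibroblast genes outside the rule (x axis), for all members and for screened members, with 95% counting intervals. All but 1 gene lie below 0 in either set, and the median moves from -0.87 to -0.35 with the screen.

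Few genes were lower in both sorts. Fosl1, an AP-1 subunit, was at 39.9, 15.4, 35.2 and 12.5 CPM, log2 ratios of -1.38 (-1.77 to -0.98) and -1.49 (-2.37 to -0.50), and its screened GFP+ ratio was -1.34 (-1.86 to -0.83), while the 5 screened cells of WT GFP- held 0 UMIs of it. Nmb, the peptide neuromedin B, had ratios of -1.36 and -1.40, and of -0.75 and -2.35 with the screen. Wnt11 was at 55.5, 20.4, 83.8 and 33.9 CPM, ratios of -1.45 (-1.79 to -1.11) and -1.31 (-1.86 to -0.70), and of -0.71 and -0.97 with the screen. Eln had ratios of -1.36 (-1.52 to -1.21) and -1.02 (-1.38 to -0.64), and of -0.82 and -1.34 with the screen, so that it was lower in all 4 comparisons though past 2-fold in 3. Insig1, which retains the sterol sensor in the endoplasmic reticulum, was the 1 gene of 7743 lower in both sorts in screened members. It was there at 59.0, 28.0, 152 and 45.1 CPM, and the 152 CPM came from the 5 screened cells of WT GFP-. Clic5 and Adgrf5, at -2.04 and -2.31 and at -1.34 and -2.20, are known from endothelial cells. Endothelial markers were at 1444 CPM in the members of WT GFP- against 236 in Sod1KO GFP-, but at 56.5 CPM in WT GFP+ against 75.7 in Sod1KO GFP+, and their part in these ratios was not tested.

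Several of the largest differences rested on few cells or on other cell classes. The haemoglobin genes Hba-a2, Hbb-bt, Hba-a1 and Hbb-bs led the list, with GFP+ ratios of 7.01 to 7.92, but 1 cell held 66.8% to 87.6% of their UMIs in Sod1KO GFP+ and 63.5% to 86.3% in Sod1KO GFP-. The cell cycle genes followed: 5 of the 5 compared were at least 2-fold higher in both sorts, beside 1.28% of all genes. Top2a was detected in 2, 15, 0 and 15 members. With the screen, 0 of the 9 cell cycle genes could be compared between genotypes in GFP+. Tnc, the matrix protein tenascin C, was at 12.8, 121, 2.70 and 20.8 CPM, but in screened members of the GFP+ libraries at 12.0 and 9.54 CPM, a log2 ratio of -0.34 (-1.12 to 0.44), so the GFP+ difference was seen with, and not without, the members that held markers of other classes. Rsad2, an interferon-induced gene, had a ratio of -3.74 in GFP+, where 1 cell held 84.6% of its UMIs in WT GFP+.

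Antioxidant genes, the class to which Sod1 belongs, shared no direction. None of the 25 compared passed 2-fold the same way in both sorts, and the medians were -0.12 in GFP+ and 0.22 in GFP-, or -0.04 and 0.29 with the screen. Gclc, the catalytic subunit for glutathione synthesis, was at 194, 52.0, 18.9 and 102 CPM, and so lower in GFP+ and higher in GFP-. Mt2, a metallothionein, was at 1291, 639, 719 and 849 CPM, with ratios of -1.02 (-1.08 to -0.95) and 0.24 (0.06 to 0.42). Of 14 interferon and MHC class I genes, 6 were at least 2-fold lower in GFP- and 2 in GFP+, beside 5.11% and 2.23% of all genes, with medians of -0.81 and -0.34. With the screen the GFP- median was 0.10.

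Between sorts, 116 of 7549 genes (1.54%) were at least 2-fold higher and 71 (0.941%) lower in GFP+ members of both genotypes. The genes highest in GFP+ were of Schwann cells and the lowest of endothelial cells. Cldn5, of endothelial tight junctions, was at 2.23, 3.26, 246 and 38.2 CPM. Over the whole marker lists, Schwann markers were at 1633 and 2196 CPM in GFP+ against 29.7 and 32.7 in GFP-, and endothelial markers at 56.5 and 75.7 CPM against 1444 and 236.

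In screened members of the libraries labelled Sod1KO, the 1 pair of sorts with enough cells, 148 of 9534 genes (1.55%) were higher in GFP+ and 218 (2.29%) lower. Of 11 complement genes 3 (C3, C4b and C2) were higher in GFP+ and 1 (Clu) lower, and of 11 adipogenic and lipid genes 3 (Dlk1, Apoe and Apod) were higher and 1 (Fabp4) lower. C3 was at 1678 CPM against 685 in GFP-, a log2 ratio of 1.29, C4b at 229 against 82.7 (1.47), Apod at 2272 against 1003 (1.18) and Apoe at 310 against 122 (1.34). Cxcl13, a chemokine for B cells, was at 89.3 CPM against 8.53, a ratio of 3.39. Csmd1, which was also high in Schwann-rich members, stayed higher at 113 CPM against 22.4 (2.33). Fbln2 was lower in GFP+, at 420 CPM against 935, and so was Clu, at 15.9 against 41.3. S100b, whose promoter drives the GFP, was at 33.1 CPM against 13.1, a ratio of 1.34, and in all members at 41.5, 74.3, 10.8 and 16.2 CPM. The 9 cell cycle genes were all lower in GFP+, with a median of -3.74. Few cells held them, and before the screen Top2a was detected in as many members of Sod1KO GFP+ as of Sod1KO GFP-. The screen removed 113 members of Sod1KO GFP+ and 43 of Sod1KO GFP-, and its part in this difference was not tested.

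Members also differed among themselves within a library. After thinning to 3000 UMIs, variance over mean was computed for 3342 genes in all 4 libraries, and the lowest of the 4 values had a median over genes of 0.917. The contractile genes Acta2, Tagln, Tpm2 and Myl9 were among the 12 most variable, and Acta2, smooth muscle actin, had ratios of 45.5, 47.2, 21.1 and 33.1, with mural markers at 875, 608, 3686 and 1489 CPM in the same sums. In screened members of the 3 libraries, where mural markers were at 76.7 to 84.8 CPM, the contractile genes were not among the first 12, which the screen itself favours, since Acta2 and Tagln are among its mural markers. The secreted factors Mgp and Cxcl14 were among the first 12 in both sets, and Apod in the screened set alone. Apod had variance-to-mean ratios of 76.1, 60.2 and 43.7 in WT GFP+, Sod1KO GFP+ and Sod1KO GFP-. It was detected in 50.0%, 64.1% and 55.3% of the thinned cells, with medians of 0.5, 1 and 1 UMI and maxima of 170, 148 and 138 UMIs. Mgp, an inhibitor of calcification, had ratios of 19.9, 17.4 and 28.0 and was detected in 39.6% to 53.1% of cells, and Cxcl14 had 16.8, 19.0 and 16.6 with detection in 31.8% to 39.4%. Thus some members held many molecules of Apod and Cxcl14, which were abundant in the other stromal cells, and the median thinned member held at most 1 of Apod.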

How the data were processed

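Cells were sorted for GFP and live status, and libraries were made with a 10x Genomics 3′ HT v3 kit. The deposited UMI counts per gene and barcode were made by the authors with Cell Ranger (7.1.0 in the file header and the processing notes, which also name Seurat 4.30), before any removal of ambient RNA. The notes name mm10, while the methods of the study name GRCm39 and GRCm38, so no coordinate is given.

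Members, comparison cells and sums were computed with pandas 2.3.3, scipy 1.17.1 and numpy 2.4.6 and drawn with matplotlib 3.10.9, all under Python 3.11.15. UMIs were summed per library and cell set and scaled to 1000000 (CPM, per transcript tag, not divided by length), with exact Poisson intervals. Ratios had exact conditional binomial intervals, a group at 0 was set at 3 UMIs, and genes needed at least 50 UMIs over the 2 libraries compared. A gene was counted as higher or lower at 2-fold or more, since 1 library per group allows no test. Differences of shares had Newcombe intervals. Other Pdgfra+ stromal cells had Pdgfra detected, met the tendon limit and were no members, and endothelial cells held at least 2 of Pecam1, Cdh5, Cldn5 and Tie1 and no Pdgfra. Doublets were not called. Thinning to 3000 UMIs left out shallower cells, 446, 532, 303 and 479 of WT GFP+, Sod1KO GFP+, WT GFP- and Sod1KO GFP-.

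Named genes were the first 10 each way between genotypes, 8 between sorts, 15 higher and 10 lower over the stroma and 12 by spread, plus from each list up to 5 of the highest level and those past 2-fold the same way in both sorts. Other genes in the text were chosen after their values were seen. The members and the lists were chosen with earlier results of these data known. The code for the genotype ratios and their intervals was tested on simulated sums of counts, without variation between cells. The other steps were not tested in this way.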

Additional observations from a re-analysis of the deposited data

Results flagged for a closer look

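Gclc, the catalytic subunit of the enzyme that begins glutathione synthesis, stood out because its 2 genotype ratios pointed in opposite directions. Sod1KO over WT, by label, gave a log2 ratio of -1.90 (-2.10 to -1.71) in GFP+ members and 2.43 (1.37 to 3.75) in GFP- members. In screened members it was -1.41 (-1.64 to -1.19) and 2.39 (0.84 to 4.68). WT GFP+ and Sod1KO GFP+ were at 194 and 52.0 CPM, and WT GFP- and Sod1KO GFP- at 18.9 and 102 CPM, so the highest and the lowest level were both in WT libraries. The lowest rested on few UMIs, as 3 UMIs make 8.11 CPM in the 36 members of WT GFP-. Of these members, 30 were over the screen limit for endothelial markers and 26 for mural markers, so they are fibroblasts by the rule only. The screened GFP- ratio rested on 5 WT cells. The difference between the sorts was not tested, as each value came from 1 library.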

How the results depend on the processing

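Depth, other-class RNA and the 36 thin members of WT GFP- limit the values. Median-of-ratios scaling and a total without mitochondrial genes, Malat1 and Gm42418 left all counts of genes within 1.5 times, and 11 of the 12 genes of widest spread were shared at 2000 UMIs. Each group was 1 library, so no pair of libraries was repeated over mice. For that reason no ratio between libraries could be recomputed with a library left out. WT GFP- was left out of most screened comparisons, as stated above.

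The share difference between genotypes in GFP+ (1.75 points) was 4.17 with at least 3 rule genes, 0.490 with at least 5, -0.0630 in cells thinned to 3000 UMIs, 0.334 without members that had 2 markers of another class, 0.458 with the 0.05% screen and 0.671 with a 0.1% screen. That in GFP- (1.93) was 3.38 with 3 rule genes, 3.17 with over 500 genes and under 5% mitochondrial UMIs, 0.283 thinned, and 3.00 and 3.13 with the screens. Between sorts, the WT difference (0.586) was 1.71 with 3 rule genes, 1.76 with the stricter cell filter, and 1.94 and 1.93 with the screens. In thinned cells it was -0.0416 (-0.924 to 0.645). The Sod1KO difference (0.410) was 2.50 with 3 rule genes, -0.0658 with 5 and -0.388 thinned. It was -0.496 without members of 2 other markers, and -0.594 and -0.534 with the screens.

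Genes higher between genotypes in both sorts (115) numbered 1 thinned, 20 without members of 2 other markers, 178 and 35 with minimums of 20 and 200 UMIs, and 29 and 40 with the screens. The lower ones (15) numbered 41 and 6 with 3 and 5 rule genes, 1 thinned, 9 without members of 2 other markers, 39 and 4 with the minimums, and 1 and 5 with the screens. Genes higher between sorts (116) numbered 334 and 38 with 3 and 5 rule genes, 7 thinned, 14 without members of 2 other markers, 77 without members over 2 times the median UMIs, 34 at 200 UMIs, and 28 and 24 with the screens. The lower ones (71) numbered 124 and 29, 3 thinned, 9, 42, 120 and 19 with the minimums, and 27 and 24 with the screens, in the same order of settings. Over the other stromal cells, higher genes (44) numbered 24 and 102 with 3 and 5 rule genes, 69 without the tendon limit, 17 thinned, 85 without members of 2 other markers, and 77 and 20 with the minimums. The lower ones (62) numbered 36 and 143, 15 thinned, 161, 37 without deep members, 39 by the mean CPM per cell, 102 and 22 with the minimums, and 205 and 193 with the screens. The fewer UMIs of thinned cells and the changed minimum leave fewer or more genes to compare. For the other settings the cause was not tested.

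Single values that changed sign were few, but of 121 main results 67 moved under the other settings and 53 stayed the same. Between genotypes in GFP-, Rsad2 was 0.43 with 5 rule genes, Gna14 -0.12 without deep members, and Hbb-bs -0.063 with the screen. Without members of 2 other markers the GFP- values were -0.13 for Prc1, -0.0027 for Stmn1, -0.51 for 2610307P16Rik and -0.53 for Fam155a. Tnc in GFP+ was -0.34 with the screen, and Fabp4 between Sod1KO sorts was 0.45 thinned. Over the other stromal cells of WT GFP-, Procr was -1.55 without members of 2 other markers and -0.018 with the screen, Aplnr 0.19 without members of 2 other markers, and C3 -0.63 without deep members. The cause of these changes was not tested.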
